A study of Mus musculus with 2 samples.

Results

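The loci described here surround 4 mouse genes of the melanosome, the organelle in which melanocytes make and store pigment. They are Pmel and Mlana, which encode proteins of the melanosome's structure, and Oca2 and Slc45a2, which encode transport proteins of its membrane. EP300 (p300) acetylates histones and coactivates transcription. Its binding sites, and the histone mark H3K4me1 (monomethylated lysine 4 of histone H3), were mapped with the antibodies anti-p300 and anti-H3K4me1 by chromatin immunoprecipitation and sequencing (ChIP-seq) in melan-a, a line of immortalized mouse melanocytes. Both samples came from this line, labelled C57BL/6 Ink4a -/-, so that all libraries share this strain and the loss of Ink4a, and no treated, mutant or other cell type was compared. Each sample represents 2 replicates, deposited for EP300 as 2 peak lists and for H3K4me1 as 1 list of regions. The labels do not say whether the replicates were separate cultures, and peak lists hold no expression values against which the cell type could be checked.

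Members were the rows of the 3 lists that overlapped 4 windows of the mouse genome build mm9. The windows were chromosome 10, 128080000 to 128230000 for Pmel (150 kb), chromosome 19, 29700000 to 29860000 for Mlana (160 kb), chromosome 7, 63420000 to 63850000 for Oca2 (430 kb), and chromosome 15, 10850000 to 11050000 for Slc45a2 (200 kb). They held 88 of the 78725 rows: 12 of 8451 EP300 peaks of replicate 1, 15 of 10351 EP300 peaks of replicate 2, and 61 of 59923 H3K4me1 regions. The lists name no genes, and an mm9 gene annotation was not used here, so a peak belongs to a window and not to a start site, exon or intron. In the RefSeq table of another build, GRCm38.p6, the nearest protein-coding neighbours are Rab5b and Cdk2 for Pmel, Ermp1 and 9930021J03Rik for Mlana, Herc2 and Gabrg3 for Oca2, and Amacr and Rxfp3 for Slc45a2. Elements of such neighbours may lie in the same windows.

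Enhancers are stretches of DNA that raise transcription from a distance. Their nucleosomes commonly carry H3K4me1, and coactivators such as EP300 are recruited by the transcription factors bound between those nucleosomes, so that the mark often lies on either side of the EP300 site. In pigment cells, many melanosome genes are activated by MITF, a basic helix-loop-helix factor that binds E-box motifs, together with the HMG-box factor SOX10. PMEL forms the fibrils on which melanin is laid down, and MLANA is a small membrane protein that acts with PMEL in the maturing melanosome. OCA2 and SLC45A2 are membrane proteins that help to raise the pH in the melanosome, and loss of either causes a form of albinism.

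Of the 4 genes, RefSeq promoter sequence was matched for Oca2. It is shown because it holds an E-box of the class that MITF-type factors bind, and its place relative to the EP300 peaks cannot be given because its build differs from theirs. The stretch printed is chr7:56239509-56239592 on the plus strand of GRCm38.p6, which runs from 250 to 167 bases before the listed transcript start and ends before the first base of the annotated gene. Capitals mark the motif CATGTG, the core of the M-box, here in its reverse form CACATG.

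Oca2: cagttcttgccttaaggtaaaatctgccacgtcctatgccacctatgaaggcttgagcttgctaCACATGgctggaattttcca

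Searched on both strands, CATGTG was found in this stretch 1 time, with its first base at position 65 counted from the 5′ end as printed. The same 84 positions held it in 4.67% of the 32851 promoters of the table. The palindromic E-box CACGTG (1.45% of promoters) and the SOX-type motif ACAAAG (5.86%) were not among these letters, so the CATGTG match overlapped neither. These matches describe the sequence and say nothing about binding.

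EP300 was found in all 4 windows in both replicates. Peaks of the 2 lists that overlapped by at least 1 bp were merged into shared loci, of which the windows held 8: 2 at Pmel, 2 at Mlana, 3 at Oca2 and 1 at Slc45a2. They are named by their gene and a letter in the order of their coordinates. In replicate 1, 8 of the 12 peaks were shared (66.7%, Clopper-Pearson 95% interval 34.9% to 90.1%), against 42.9% of its whole list. In replicate 2, 8 of the 15 peaks were shared (53.3%, interval 26.6% to 78.7%), against 34.8% of its whole list. Both intervals contain the share of the whole list, so a difference from it was not detectable with so few peaks. The intervals also treat the peaks as independent, although 6 of the 8 shared loci lie in close pairs.

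**Figure D1:**
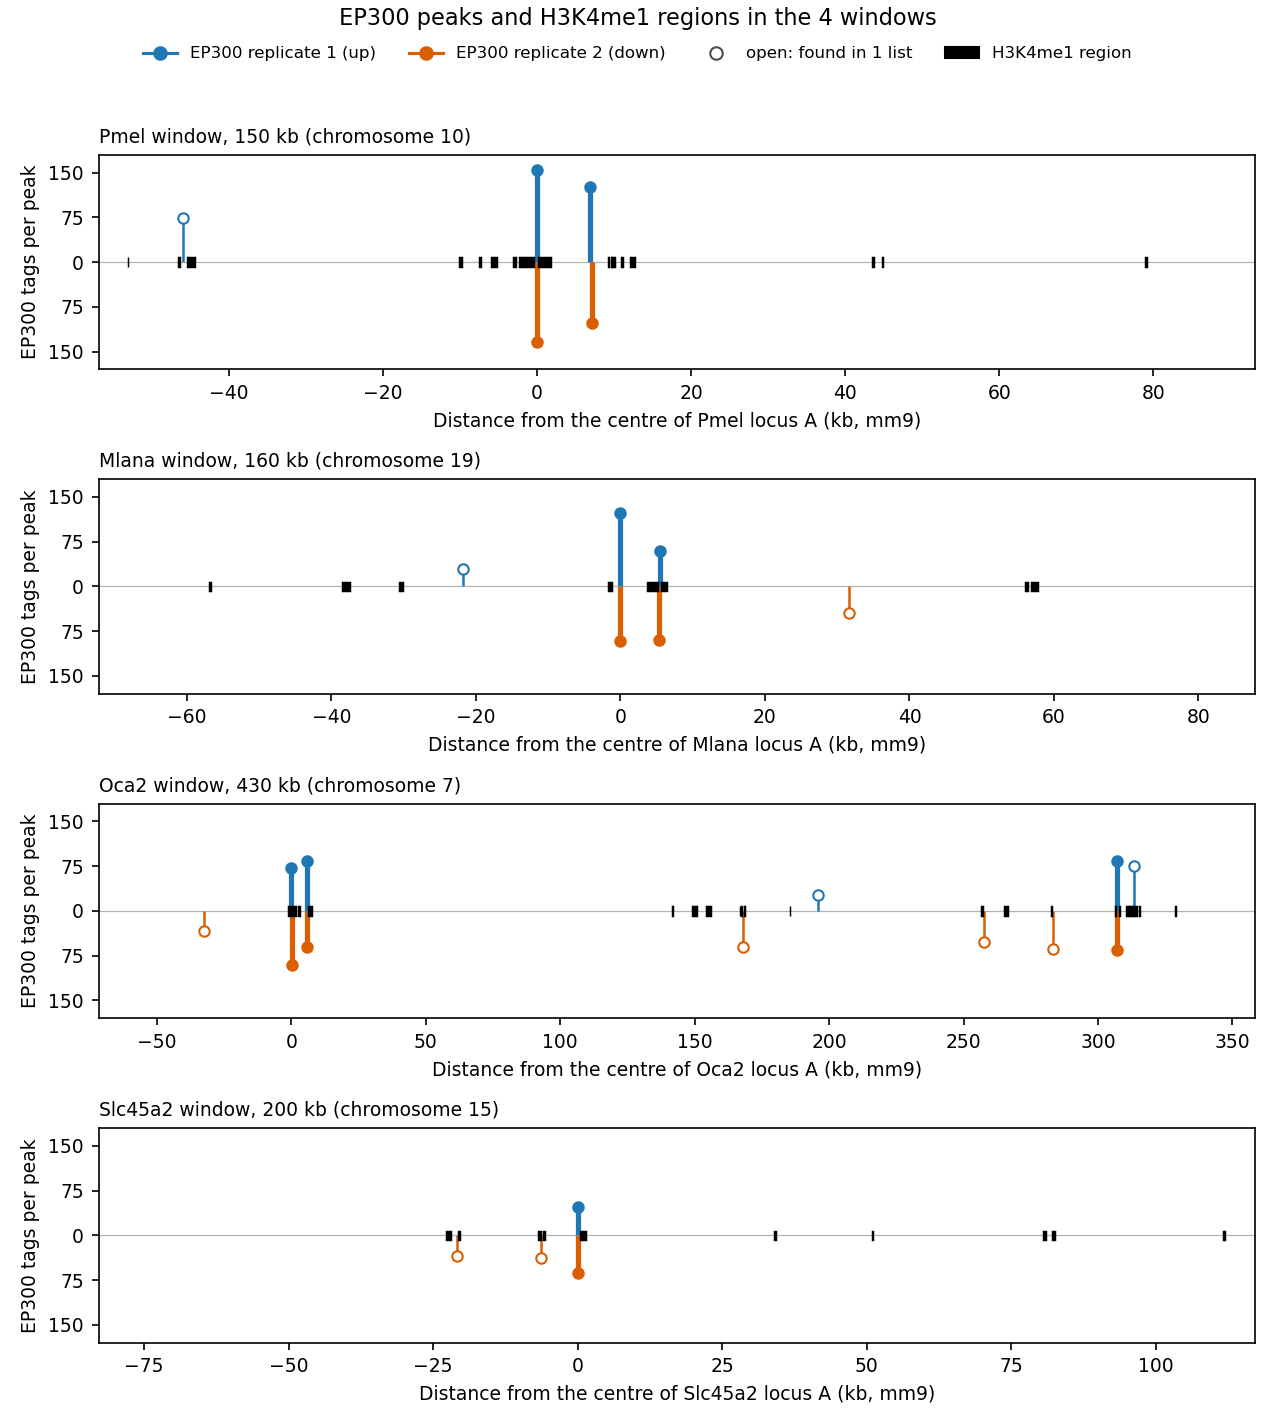
Each panel is 1 window, with distance in kb from the centre of its best-ranked shared locus on the x axis and EP300 tags per peak on the y axis, replicate 1 upward and replicate 2 downward. Filled points are peaks of shared loci, open points are peaks found in 1 list, and black blocks are H3K4me1 regions, outlined so that the narrowest can be seen. The 8 shared loci hold 48 to 155 tags, and 6 of them lie in pairs.

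Depth was similar in the 2 EP300 libraries, with 31439027 and 32355042 ChIP tags after filtering, and the weakest peak of either list had 21 tags. Over the whole lists the median peak had 43 tags in each. For H3K4me1 no tag total is given and the depth is unknown, so a missing region does not show that the mark is absent. Intervals on tags and shares cover counting error alone.

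The Pmel window held the strongest EP300 locus of the 4. Pmel locus A (chromosome 10, 128136263 to 128137533) had 155 tags in replicate 1 (exact Poisson 95% interval 131.6 to 181.4) and 134 in replicate 2 (112.3 to 158.7). Its summit was 19.83-fold and 16.68-fold over the local background, and it stood at order 133 of the 3573 shared loci by mean rank of significance. On this scale it lay at the 96.3 percentile, where 100 would be the strongest locus. It was the strongest of the 8 loci in both lists, and its 2 summits were 81 bp apart.

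Pmel locus B (chromosome 10, 128142921 to 128144686) lay 5388 bp further on and was also clear of background in both lists. It had 126 tags in replicate 1 (interval 105.0 to 150.0) and 103 in replicate 2 (84.1 to 124.9). Its summits were 9.73-fold and 8.96-fold enriched and lay 16 bp apart, and it was at the 77.8 percentile of shared loci. A further peak of replicate 1, 74 tags at 128090248 to 128091649, had no counterpart in replicate 2, whose nearest peak was 44661 bp away.

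At Mlana, the 2 shared loci were again neighbours, 4217 bp apart. Mlana locus A (chromosome 19, 29771521 to 29772848) had 123 tags in replicate 1 (interval 102.2 to 146.8) and 91 in replicate 2 (73.3 to 111.7), with summits 8.88-fold and 6.02-fold enriched. Its summits were 288 bp apart, the widest separation among the 8 loci, whose median was 46.5 bp. Mlana locus B (chromosome 19, 29777065 to 29778170) had 60 tags in replicate 1 (45.8 to 77.2) and 89 in replicate 2 (71.5 to 109.5), with 7.96-fold and 7.62-fold enrichment. So the order of the 2 loci by tags was clear in replicate 1, where the intervals do not overlap, and was not resolved in replicate 2. They lay at the 78.5 and 61.6 percentiles of shared loci.

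The remaining peaks of the Mlana window were weak and stood alone. Replicate 1 had 30 tags at 29750072 to 29750783 (4.25-fold) and replicate 2 had 45 tags at 29803397 to 29804342 (3.49-fold). They were 20835 bp and 25302 bp from the nearest peak of the other list, and 7973 bp and 23808 bp from the nearest H3K4me1 region.

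Oca2, the longest of the windows, held a pair of shared loci and another 301.2 kb away from it. Oca2 locus A (chromosome 7, 63491045 to 63492433) had 72 tags in replicate 1 (interval 56.3 to 90.7) and 90 in replicate 2 (72.4 to 110.6), with 8.76-fold and 9.74-fold enrichment. Oca2 locus B (chromosome 7, 63497086 to 63498254), 4653 bp away, had 83 tags (66.1 to 102.9) and 60 tags (45.8 to 77.2), with 7.73-fold and 8.03-fold enrichment. Replicate 1 had more tags at locus B and replicate 2 more at locus A, and in neither did the 2 intervals separate. The loci lay at the 79.4 and 62.3 percentiles.

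Oca2 locus C (chromosome 7, 63798282 to 63799408) lay 300028 bp beyond locus B. It had 84 tags in replicate 1 (interval 67.0 to 104.0) and 66 in replicate 2 (51.0 to 84.0). By fold enrichment the lists were further apart, at 13.75-fold and 6.78-fold, a log2 ratio of 1.02 against 0.39 for the tags. It was at the 69.1 percentile.

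Between and around these loci, the Oca2 window also held 6 of the 11 peaks that were found in a single list. The strongest of replicate 1, at 63804443 to 63805837, had 75 tags and a 6.54-fold summit and lay 5106 bp from the nearest peak of replicate 2, that of locus C. The strongest of replicate 2, at 63774194 to 63775368, had 64 tags and a 7.38-fold summit and was 22914 bp from any peak of replicate 1. These ranked at the 82.5 and 83.1 percentiles of their own lists, above 2 of the 8 shared peaks in each list. The second of each list by significance had 27 tags at 63687283 to 63687862 in replicate 1 and 52 tags at 63748827 to 63749706 in replicate 2. The remaining 2, both in replicate 2, had 33 and 60 tags.

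Slc45a2 had the lowest-ranked of the shared loci by the mean rank of significance. It was the weakest in replicate 1, whereas in replicate 2 Oca2 locus B had fewer tags and Oca2 loci B and C had lower significance. Slc45a2 locus A (chromosome 15, 10932361 to 10933456) had 48 tags in replicate 1 (interval 35.4 to 63.6) and 63 in replicate 2 (48.4 to 80.6), with 6.36-fold and 8.85-fold enrichment. At the 41.2 percentile it was the exception among the 8, of which the other 7 lay above the 50 percentile. Ranked by fold enrichment it lay at 57.8, above Mlana locus A at 53.6, whereas ranked by tags it lay at 33.3, the lowest of the 8. Replicate 2 had 2 further peaks at lower coordinates, with 34 tags at 10911599 to 10912396 and 38 tags at 10926103 to 10926943, and replicate 1 had none.

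**Figure D2:**
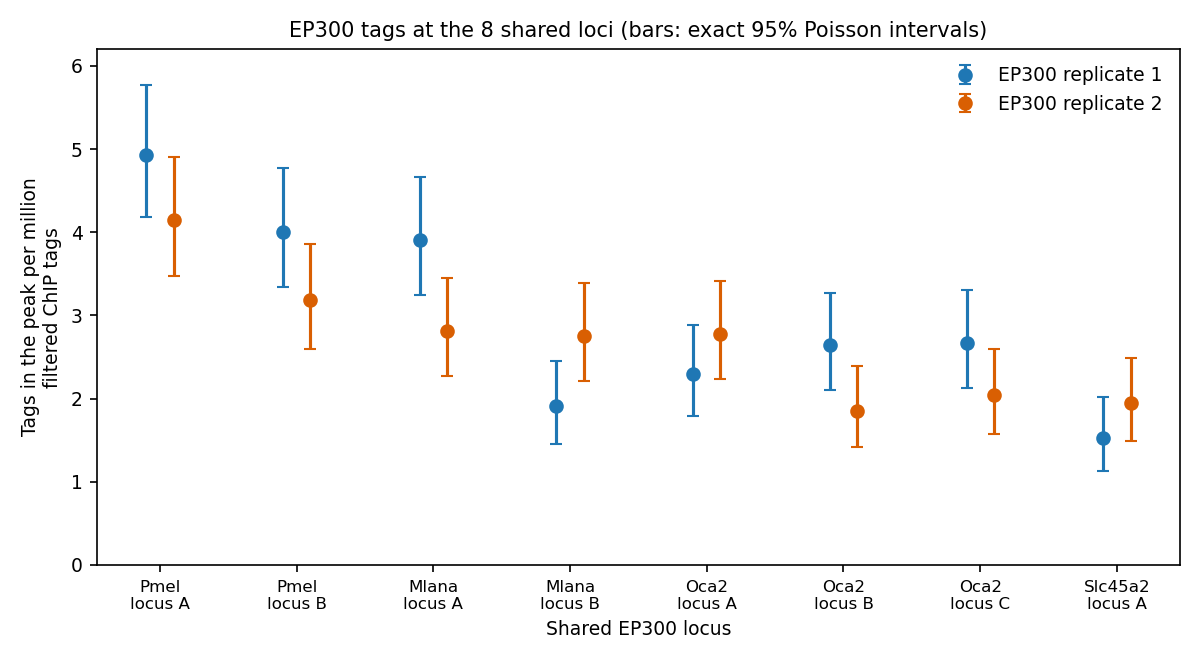
Tags in the peak per 1000000 filtered ChIP tags (y axis) at the 8 shared loci (x axis), with replicate 1 in blue, replicate 2 in orange and exact 95% Poisson intervals as bars. Replicate 1 is the higher at 5 loci and replicate 2 at 3.

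Tags were adjusted for depth to compare the 2 replicates. The level ran from 4.93 tags per 1000000 filtered tags at Pmel locus A to 1.53 at Slc45a2 locus A in replicate 1, and from 4.14 at Pmel locus A to 1.85 at Oca2 locus B in replicate 2. The log2 ratio of replicate 1 over replicate 2 had a median of 0.29 (SD 0.42 across the 8 loci), against -0.12 (SD 0.53) over all 3573 shared loci. Over the 8 loci the median was 0.09 on fold enrichment and 0.06 on tags per peak length, so its size depended on the measure. At 3 of the 8 loci the 95% interval of the ratio left out equality, while 31.8% of all shared loci did so.

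Those 3 loci did not point the same way. Mlana locus A was higher in replicate 1, with a log2 ratio of 0.48 (interval 0.07 to 0.88), and so was Oca2 locus B, with 0.51 (0.01 to 1.01). Mlana locus B was higher in replicate 2, with -0.53 (-1.02 to -0.04). On fold enrichment in place of tags the ratio was 0.56 at Mlana locus A, but 0.06 at Mlana locus B and -0.05 at Oca2 locus B, opposite in sign to their tag ratios. Peak edges were set separately in each list, so the tags of a pair were not counted over exactly the same bases. With 1 library on each side these intervals compare 2 libraries.

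**Figure D3:**
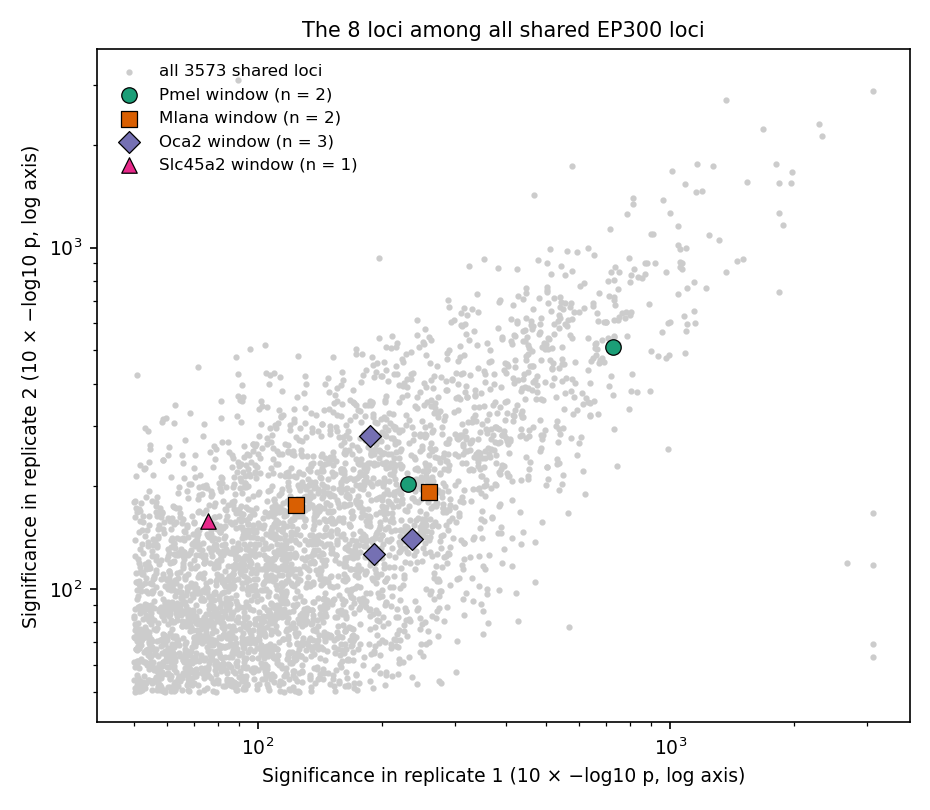
Significance in replicate 1 (x axis) against replicate 2 (y axis), both as 10 times the -log10 p and on log axes, for all 3573 shared loci (grey) and the 8 loci of the windows (coloured by gene). Pmel locus A stands at 725.04 and 511.87, and the other 7 lie between 75.83 and 260.58 in replicate 1 and between 126.64 and 280.34 in replicate 2.

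As a group the 8 loci sat in the upper part of the shared loci without reaching its top. Their median percentile was 73.4, with a range of 41.2 to 96.3. The median summit of the 8 was 8.82-fold enriched in replicate 1, where that of all shared loci was 7.34-fold. In replicate 2 these medians were 8.44-fold and 6.85-fold. Median tags were 83.5 and 89.5 in the 2 lists, and 64 and 72 over all shared loci. All 8 were also found when each list was restricted to its upper 50% by significance, as were 70.2% of all shared loci.

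Shared loci came in close pairs in 3 of the 4 windows. Pmel A and B had centres 7.1 kb apart, Mlana A and B 5.4 kb, and Oca2 A and B 6.0 kb. Thus 6 of the 8 loci had another shared locus within 10 kb, compared with 22.6% of all shared loci. This spacing was noticed in the data, and it carries no test because the members of a pair are counted 2 times. Oca2 locus C had a near neighbour only in replicate 1, the peak of 75 tags described above.

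H3K4me1 was present beside most of the shared loci. A region lay within 1000 bp of the edges of 7 of the 8 loci (87.5%, Clopper-Pearson 95% interval 47.3% to 99.7%), compared with 96.1% of all shared loci. The centre of a locus was taken as the midpoint of the overlap of its 2 peaks, using the best-ranked pair where there were more. It lay in a gap between 2 regions, each within 1000 bp, at 4 loci (50.0%, interval 15.7% to 84.3%), compared with 62.3% overall. A region was within 1000 bp on a single side at 2 loci (19.0% overall), no centre was inside a region (12.2% overall), and 2 centres had no region within 1000 bp (6.47% overall). With 8 loci these counts do not set the windows apart from the rest.

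**Figure D4:**
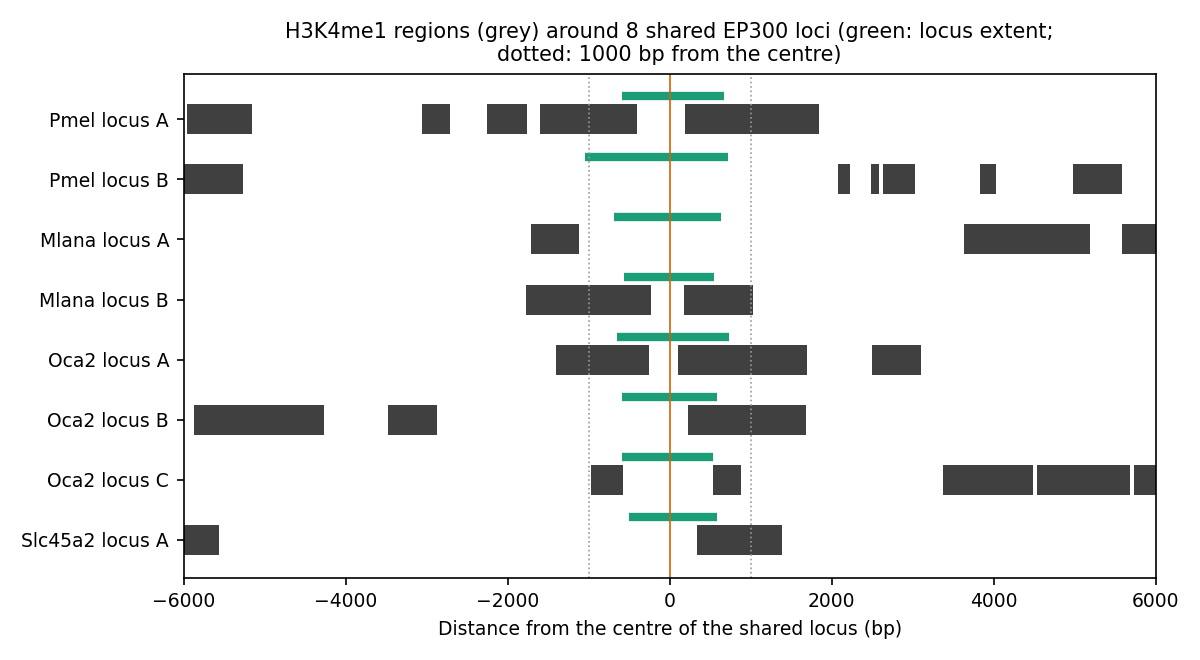
H3K4me1 regions (grey bars) by their distance in bp from the centre of each of the 8 shared EP300 loci, 1 locus per row, with the extent of the EP300 locus in green and dotted lines at 1000 bp. Gaps of 350 bp to 1100 bp surround the centres of Pmel A, Mlana B, Oca2 A and Oca2 C, whereas the nearest region to Pmel B begins 1364 bp beyond its edge.

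The regions bordering the 4 gaps differed widely in rank. Pmel locus A lay in a gap of 600 bp, between regions ranked 31176 and 8893 of 59923, where rank 1 is the strongest. Mlana locus B lay in a gap of 400 bp between regions ranked 3417 and 4816, and Oca2 locus A in a gap of 350 bp between regions ranked 2711 and 2279. Oca2 locus C differed: its gap of 1100 bp was the widest, and its borders were narrow regions ranked 43409 and 42416. The median gap over all shared loci was 650 bp.

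The other 4 loci lacked a region on at least 1 side. Oca2 locus B had a region of rank 10008 beginning 228 bp to the right of its centre and none for 2873 bp to the left. Slc45a2 locus A had the region of rank 931 beginning 333 bp to the right and none for 5568 bp to the left. Mlana locus A overlapped no region, and the closest, of rank 22049, ended 422 bp from its edge. That region was 1115 bp from the centre of Mlana locus A, which, like the centre of Pmel locus B, had no region within 1000 bp.

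Measured from the edges of the loci, Pmel locus B was the exception to the proximity of the 2 signals. Its closest H3K4me1 region began 1364 bp from its edge and ranked 49092. Of the 3573 shared loci, 141 had no region within 1000 bp, and their median percentile of EP300 strength was 32.3. With a percentile of 77.8, Pmel locus B came at order 13 among these 141.

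H3K4me1 also lay beside some of the peaks found in a single list. A region was within 1000 bp of 2 of the 4 such peaks of replicate 1 and of 5 of the 7 of replicate 2, compared with 46.6% and 46.1% of all single-list peaks. Measured from the summit, the Oca2 peak of 75 tags in replicate 1 lay in a gap of 350 bp, and the Pmel peak of 74 tags in a gap of 900 bp. In replicate 2 the Oca2 peak of 64 tags had a region of rank 9678 ending 39 bp to the left of its summit and none to the right for 23212 bp. At Slc45a2, the peak of 38 tags lay in a gap of 300 bp. Several sites seen in 1 EP300 list thus had an H3K4me1 region beside them, as did 46.6% and 46.1% of all single-list peaks. With 4 and 7 such peaks, the counts do not set the windows apart from the rest. The tags of the other EP300 list at these sites are not given.

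H3K4me1 itself was unevenly spread in the windows. The Pmel window held 18 regions covering 5.60% of its length, Mlana 8 regions covering 3.94%, Oca2 24 regions covering 3.73% and Slc45a2 11 regions covering 2.52%. Cut into stretches of the same length, chromosome 10 had a median coverage of 0.167% (845 stretches), chromosome 19 of 0.562% (362), chromosome 7 of 0.407% (347) and chromosome 15 of 0.250% (501). Coverage as high as in the window was seen in 7.22% of stretches for Pmel, 17.7% for Mlana, 17.9% for Oca2 and 25.5% for Slc45a2. Stretches with at least as many shared EP300 loci made up 4.50%, 6.08%, 4.90% and 20.4%. These stretches include gene-poor sequence, so they describe where the windows stand on their chromosomes and are no test.

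In each of the 4 windows the best-ranked H3K4me1 region was also the widest, and it overlapped a shared EP300 locus. At Slc45a2 it was the region at 10933200 to 10934249 (1050 bp, rank 931, maximum log2 fold change 4.86), on the right of locus A. At Mlana it was the region at 29775850 to 29777399 (1550 bp, rank 3417, log2 fold change 4.82), on the left of locus B. At Oca2 it was the region at 63491800 to 63493399 (1600 bp, rank 2279, log2 fold change 4.65), and at Pmel the region at 128137050 to 128138699 (1650 bp, rank 8893, log2 fold change 4.20), each on the right of its locus A. Over the whole H3K4me1 list 9.03% of regions overlapped a shared locus, but the share among equally wide and well-ranked regions is not given here. A wider region is met more easily, so the overlap in all 4 windows is a description. Across the 61 regions the log2 fold change ran from 3.17 to 4.86, and 8 regions belonged to the top 10% of the list by rank: 5 at Oca2, 2 at Mlana, 1 at Slc45a2 and none at Pmel.

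Shared EP300 loci overlapped 10 of the 61 regions, compared with 9.03% of the whole H3K4me1 list, and peaks of either list overlapped 21, compared with 18.7%. Those 10 regions were wider, at a median of 1175 bp, than the other 51, at 400 bp, and their median rank was 6854.5 against 36567. A wider region is met more easily, which was not corrected for. Seen from the gaps, 27 pairs of adjacent regions lay at most 1500 bp apart, and 4 of these gaps held the centre of a shared locus, compared with 10.1% of such gaps in the whole list.

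Joined where they lay within 5 kb of each other, the 61 regions formed 28 groups, of which 5 overlapped a shared locus and 17 no EP300 peak of either list. The group of Oca2 locus C spanned 9.2 kb with 7 regions, that of Pmel locus A 11.9 kb with 7, that of Oca2 loci A and B 9.0 kb with 4, and that of the Mlana pair 8.2 kb with 3. The fifth, at Slc45a2, was a single region. In 4 of the 5, EP300 lay in a group of several regions, whereas 14 of the 28 groups were a single region. Pmel locus B lay in no group. A longer group is met more easily, and the share over all groups of the H3K4me1 list is not given here. These counts therefore describe the windows alone.

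Some well-ranked H3K4me1 regions had no EP300 peak nearby. Over the whole H3K4me1 list 18.7% of regions overlapped a peak of either EP300 list, so a region without one is common. The share among well-ranked regions alone is not given here. In the middle of the Oca2 window, 4 regions at 63640800 to 63647649 spanned 6.8 kb, with ranks from 2441, at 63645750 to 63646699, to 32598. The closest EP300 peak, of replicate 2, lay 11564 bp away. Between the region beside Oca2 locus B and the next, 133.8 kb (63499350 to 63633199) held no H3K4me1 region, the longest such stretch in the 4 windows. At Mlana a region of 1150 bp and rank 6641, at 29733650 to 29734799, was likewise 15273 bp from any EP300 peak.

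The edges of the windows did not divide dense groups of peaks. The peak closest to an edge on the inner side lay 10.2 kb inside at Pmel, 50.1 kb at Mlana, 38.6 kb at Oca2 and 61.6 kb at Slc45a2, each found in a single list. Outside, the first peak was one of 27 tags in replicate 2, 11.5 kb beyond the Pmel window. Shared loci lay 29.3 kb before the Slc45a2 window, with 52 and 61 tags, and 49.6 kb after the Mlana window, with 84 and 73 tags. After the Oca2 window no EP300 peak followed for 846.4 kb in replicate 2 and 1087.5 kb in replicate 1.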

How the data were processed

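EP300 and H3K4me1 ChIP-seq of melan-a cells was deposited as peak lists, on mm9 per the submitters' processing notes. Per the file headers, the authors called each EP300 replicate with its own control in MACS 1.4.1 20110627, at a p-value threshold of 1e-05 and with at most 2 duplicate tags per position. The deposited EP300 columns are a tag count, a significance score (10 times the -log10 p, at most 3100), a false discovery rate in percent and a fold enrichment (ratio of the summit to local background). The deposited H3K4me1 list gives each region's rank, a score named maxT, its highest log2 fold change, a Poisson p-value as -log10 (at most 100) and a false discovery rate on the p-value scale. How its 2 replicates became 1 list, its caller and the aligner of either list: not given in the sources used here.

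Rows overlapping the windows were taken as deposited. Loci were ordered by averaging the ranks of both peaks by significance, each over its whole list. A peak of a single list was placed against H3K4me1 by its summit. Python 3.11.15, pandas 2.3.3, numpy 2.4.6 and scipy 1.17.1 were used, and the functions were tested on simulated data. There is 1 condition, so no groups were compared and no p-values computed. Named were all shared loci, the strongest 2 peaks found in a single list (per window and list), and the widest, the best-ranked and the flanking H3K4me1 regions. The Oca2 group without EP300, the Mlana region far from EP300 and peaks outside the windows were named after their values were seen. Windows and rules were chosen with earlier results of these data known. Alternatives were the overlap, distance, rank, strength and window settings given in the closing section. A planned list of other melanosome genes was not examined, since it needs mm9 positions.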

Additional observations from a re-analysis of the deposited data

How the results depend on the processing

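Of 35 alternatives, 30 stayed within 1.5 times the count or coverage, within the binomial interval of the share, or within 1 SD of the median, and 2 of the 35 were chosen after seeing the data. With 8 loci the interval and the SD are wide, so this tally is a weak check. A gap share of 25.0% in place of 50.0% counted as within. So did a median log2 replicate ratio of 0.06 (tags per peak length) in place of 0.29. The 8 shared loci were 8 when 50% of the shorter peak had to overlap, when peaks within 500 bp also counted, and in the upper 50% of each list, and 10 with 50 kb added on each side of the windows. In place of shared loci, all peaks of a single list numbered 15 without EP300 replicate 1 and 12 without EP300 replicate 2; H3K4me1 was then nearby at 12 of 15 and 9 of 12, and the centre lay in a gap at 6 of each. All 8 loci (100%) had H3K4me1 within 2000 bp, since Pmel locus B is 1364 bp from a region. The upper 50% of H3K4me1 regions by rank left 27 of 61 regions, put 2 of 8 centres in a gap in place of 4, and lowered coverage to 3.47% at Pmel and 0.825% at Slc45a2. With all H3K4me1 regions but a distance of 500 bp in place of 1000 bp, 3 of 8 centres lay in a gap. By fold enrichment the log2 replicate ratio turned to 0.06 at Mlana locus B and to -0.05 at Oca2 locus B. The cause was not tested. Ranked by fold enrichment or by tags, the median percentile was 68.9 or 62.2. No paired analysis was possible because there is 1 condition. The listed peaks had at least 21 tags, and EP300 binding that did not pass the authors' p-value threshold is not listed.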

Other observations

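Across the 4 windows, the order by EP300 and the order by H3K4me1 differed. By the best shared locus, the windows ranked Pmel (96.3 percentile), Oca2 (79.4), Mlana (78.5) and Slc45a2 (41.2). By the best-ranked H3K4me1 region they ranked Slc45a2 (rank 931), Oca2 (2279), Mlana (3417) and Pmel (8893). The window first by EP300 thus had the lowest-ranked top region, and the window last by EP300 had the best-ranked. Ordered by tags, Mlana (79.7) came before Oca2 (66.0), with Pmel still first and Slc45a2 last. With 4 windows chosen for their genes this is a description and was not tested.

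In the Pmel window, 7 of 18 H3K4me1 regions were in the upper 50% of the list by rank, against 6 of 8 at Mlana, 12 of 24 at Oca2 and 2 of 11 at Slc45a2. Over the whole list this share is 50% by definition, and with so few regions per window a difference from it was not tested. The Pmel window had the highest coverage of the 4 and none of its regions in the top 10% by rank. At Slc45a2 the best-ranked region was at 931 and the next at 19968.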
